A study of Zea mays with 47 samples.

Results

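The genes described here are 4 enzymes that move ammonium into and out of amino acids in maize leaves. They are the glutamate dehydrogenases GRMZM2G427097 and GRMZM2G178415, the plastid glutamine synthetase GRMZM2G098290 and a cytosolic glutamine synthetase, GRMZM2G046601. They were chosen by their function, as 4 of the 17905 genes in the count table, and all 4 were in it. Seedlings of 4 Flint inbred lines (L012, L017, L023 and L043) and 4 Dent inbred lines (S058, S067, S070 and P040) were grown at a day temperature of 25°C, 32°C or 38°C, with nights of 20°C, 27°C or 33°C, and those of the warmer levels spent their first days at the 25°C setting. In both pools 2 lines had been selected as heat tolerant (S058, S067, L043 and L012) and 2 as heat susceptible (L023, L017, S070 and P040). A library was made from pieces of the latest fully developed leaf of 5 plants, after depletion of ribosomal RNA. Each line and heat level had 2 such libraries, apart from L017 at 32°C with 1, which gave 47 libraries, 23 Flint and 24 Dent. The heat levels were run as separate experiments in a growth chamber, so heat level and experiment cannot be told apart. Whole leaf pieces were sequenced, so fewer cells of a type and less RNA per cell cannot be told apart either.

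Plants take up nitrate, reduce it to nitrite and ammonium, and fix the ammonium with glutamine synthetase, which joins it to glutamate to make glutamine. Glutamate synthase then passes the amide nitrogen on to make glutamate. Plastid glutamine synthetase works in the chloroplast, where it also takes back the ammonium released in photorespiration, and the cytosolic forms serve mainly nitrogen transport and remobilisation. Glutamate dehydrogenase, a mitochondrial enzyme, mostly runs the other way in leaves, releasing ammonium from glutamate and returning its carbon skeleton to respiration, and it is known to be induced when carbon is short, in ageing leaves and under stress.

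Depth bore on these genes unequally. Library totals ranged from 3687700 to 20642205 counts, and genes that each took more than 1% of all counts held between 76.5% and 88.1% of a library at 25°C but between 48.6% and 67.6% at 38°C. Values are therefore given as CPM, counts scaled to libraries of equal effective size by edgeR's TMM normalisation, whose factors ranged from 0.392 to 0.721 at 25°C and from 1.28 to 3.16 at 38°C. Rises and falls, that of GRMZM2G178415 included, are thus relative to most other genes of a library and not to its total counts. The 8 leaf markers that were checked, of mesophyll and bundle sheath cells, reached 2 CPM in all 47 libraries. By their expression profiles 44 of the 47 libraries were closest to the line on their label. The other 3 were P040 at 25°C replicate 1, which was closest to L017, S070 at 32°C replicate 1, which was closest to P040, and P040 at 32°C replicate 1, which was closest to S070. No call of the 4 genes over all lines or between the pools, and none in P040 or S070 alone, changed without these libraries, and values they move are given with and without them. The RefSeq annotation names GRMZM2G178415 gdh1, GRMZM2G098290 gln1 and GRMZM2G046601 gln3, and it gives GRMZM2G427097 no symbol. GRMZM2G427097 lies on chromosome 10 from 134077909 to 134082362 in B73 RefGen_v3, and the positions of the other genes in that build were not used here.

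Glutamate dehydrogenase GRMZM2G427097 rose with heat in Dent leaves, most of all in S058 and S070, and the 4 Flint lines stood below all 4 Dent lines at 38°C. At 25°C its level was low in every library, from 0.388 to 1.32 CPM with a median of 0.817 (3 to 15 counts). At 38°C the S058 libraries had 51.7 and 24.5 CPM, the S070 libraries 23.1 and 5.72, the S067 libraries 3.53 and 2.83, and the P040 libraries 2.56 and 2.51. In the Flint lines at 38°C, GRMZM2G427097 had 1.70 and 2.53 CPM in L017, 0.676 and 1.63 in L023, 0.854 and 0.921 in L043, and 0.520 and 0.763 in L012. The libraries of S058, S070, S067 and P040 followed each other in this order without overlap. Those of P040 overlapped with those of L017, L017 stood just above L023, and L023, L043 and L012 overlapped. In S058 the 2 libraries were 775 and 505 counts, and in S070 they were 479 and 87 counts, a spread of 14.4 ± 12.3 CPM (SD, n = 2).

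**Figure D1:**
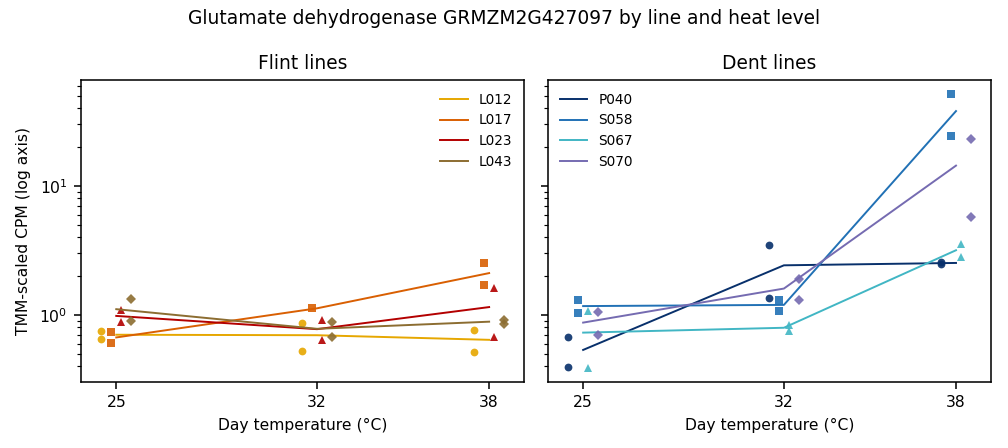
TMM-scaled CPM of glutamate dehydrogenase GRMZM2G427097 (log axis) against day temperature, with Flint lines on the left and Dent lines on the right. Points are libraries and lines join the means of an inbred line. All libraries lay between 0.388 and 1.32 CPM at 25°C, and at 38°C the Dent libraries reached 51.7 CPM while the highest Flint library had 2.53 CPM.

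The rise of GRMZM2G427097 passed the test for the step from 32°C to 38°C and not for the step before it. At 32°C the Flint libraries lay between 0.521 and 1.13 CPM with a median of 0.873, and the Dent libraries between 0.757 and 3.49 with a median of 1.31. The highest of these was P040 replicate 2 with 3.49 CPM, whereas P040 replicate 1, one of the libraries closer to another line, had 1.36. The step from 25°C to 32°C was 0.51 on the log2 scale (SE 0.559) and did not pass the test (edgeR quasi-likelihood test, Benjamini-Hochberg adjusted p = 0.537). The step from 32°C to 38°C was 2.69 (SE 0.507, adjusted p = 8.76e-05), where 23.3% of all genes were called, but it lost the call when the libraries of replicate number 1 were left out (1.88, adjusted p = 0.0618). A departure from a straight line over the heat levels did not pass the test (adjusted p = 0.0675, with 17.2% of genes called). Over both steps the slope of GRMZM2G427097 on the heat level, which gives the log2 change from 25°C to 38°C over all 47 libraries, was 3.35 (SE 0.518, adjusted p = 8.75e-07), a 10.2-fold rise. At this threshold 44.0% of all genes were called, 24.3% as rising, and 2.52% rose with a log2 slope above 2. With the line as a covariate the slope was 2.40. Without S058 it was 2.20 (adjusted p = 6.37e-05), and without the first S058 library at 38°C alone it was 2.61, so the size of the rise depended on that line.

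The slopes of the lines fitted alone did not overlap between the pools, by a narrow margin. In the Dent lines the slope of GRMZM2G427097 was 5.73 in S058 (SE 0.894, adjusted p = 0.00316, where 13.6% of genes were called) and 4.38 in S070 (SE 0.820, adjusted p = 0.0354, with 2.90% called). It was 2.32 in S067 (adjusted p = 0.0625) and 2.10 in P040 (adjusted p = 0.283), and neither passed the test. Among the Flint lines L017 had a slope of 1.67 (adjusted p = 0.130), and L023, L012 and L043 had 0.20, −0.17 and −0.34. Leaving out 1 library took P040 to between 1.44 and 2.51 and S067 to between 1.93 and 3.38, while L017 lay between 1.34 and 1.89, so the gap between the pools did not hold over single libraries. Without its 2 libraries that were closer to another line, P040 had a slope of 1.85 (adjusted p = 0.575). S058 is a tolerant and S070 a susceptible line. In S070 the call depended on its few libraries, as it was lost without any of its 4 libraries at 25°C and 38°C (slopes from 2.69 without the first library at 38°C to 5.04, adjusted p between 0.0713 and 0.179) and with the replicate block (4.17, adjusted p = 0.0546), but held without its library closer to another line (4.25, adjusted p = 0.0202) and in the joint fit of all lines (slope 4.39, adjusted p = 0.00038).

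**Figure D2:**
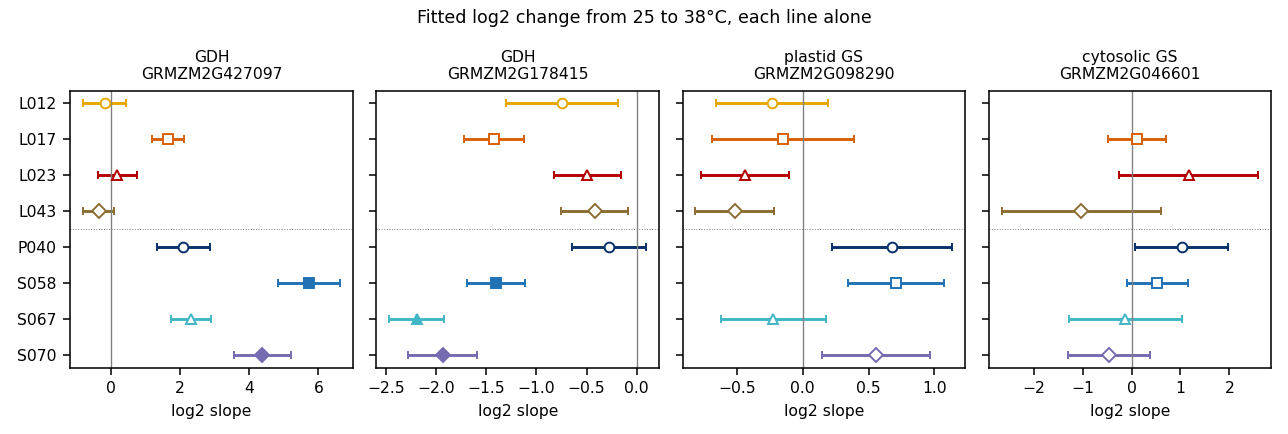
Log2 slope from 25°C to 38°C of each of the 4 genes in each line fitted alone, with bars of 1 standard error, Flint lines above the dotted line and Dent lines below it. Filled symbols passed an adjusted p of 0.05. Slopes of GRMZM2G427097 lay between −0.34 and 1.67 in Flint lines and between 2.10 and 5.73 in Dent lines, and those of GRMZM2G178415 were below 0 in all 8 lines. L012 is not drawn for GRMZM2G046601, because it had no counts at 25°C and 32°C.

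Flint and Dent levels of GRMZM2G427097 differed by less than their error at 25°C and were far apart at 38°C. At 25°C the Flint mean minus the Dent mean was 0.13 on the log2 scale (SE 0.376, adjusted p = 0.890), where 14.6% of genes were called. At 32°C it was −0.76 (SE 0.343, adjusted p = 0.126), where 17.9% were called, and −0.94 (adjusted p = 0.0585) without the 3 libraries closer to another line. At 38°C it was −2.90 (SE 0.252, adjusted p = 1.68e-09), a level 7.48-fold lower in Flint, where 23.2% of genes were called, and GRMZM2G427097 stood at rank 15 of 17905 by p. With the lines as replicates of a pool, the line means at 38°C did not overlap, and the two-sided exact permutation test over 4 against 4 lines gave p = 0.0286, the smallest that this design allows, which does not pass 0.05 once adjusted over the family of 12 such tests. Leaving out any single library kept the difference at 38°C between −3.09 and −2.57.

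By the fit over all libraries, the heat response itself also differed between these Flint and Dent lines. That fit measures the spread between libraries within these 8 lines, and only the exact test takes lines as replicates of a pool. The slope of GRMZM2G427097 was lower in Flint than in Dent lines by a log2 difference of −3.18 (SE 0.621, adjusted p = 0.0175) when all lines were fitted together, each with its own intercept and slope. Only 29 genes, or 0.162% of those tested, passed this test, and GRMZM2G427097 was at rank 10. The exact permutation test over the slopes of 4 against 4 lines gave p = 0.0286, again the smallest possible, which does not pass once adjusted over the family of 4. A test that all 8 lines had the same slope also passed (adjusted p = 0.0335), as it did for 0.173% of genes, and so did a test for differences in level between lines (adjusted p = 1.66e-05, with 52.5% called). Tolerant and susceptible lines did not differ in the slope of GRMZM2G427097 beyond the error (−0.25, SE 0.602, adjusted p = 1, with 0.00559% called). The call of the slope difference held without the 3 libraries closer to another line (−3.09, adjusted p = 0.0281) and without any single library. It was lost without S058 (−2.56, adjusted p = 0.107), S070 (−2.89, adjusted p = 0.0526), L012, L023 or L043, and with the libraries of 1 replicate number only.

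Glutamate dehydrogenase GRMZM2G178415, or gdh1, moved the opposite way and fell with heat. At 25°C its level ranged from 4.31 to 36.0 CPM over the 16 libraries with a median of 16.7, and at 38°C from 2.20 to 14.5 with a median of 7.68. The S067 libraries were far above the others at 25°C, with 34.0 and 36.0 CPM, and fell to 7.37 and 8.05 at 38°C. L012 was the lowest line at 25°C, with 4.31 and 7.43 CPM, and at 38°C, with 2.20 and 4.94. P040 changed little, from 13.8 and 16.6 CPM at 25°C to 14.5 and 11.3 at 38°C. The libraries of the heat levels overlapped over all lines, but within S067, S058, S070 and L017 each library at 38°C lay below each at 25°C.

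**Figure D3:**
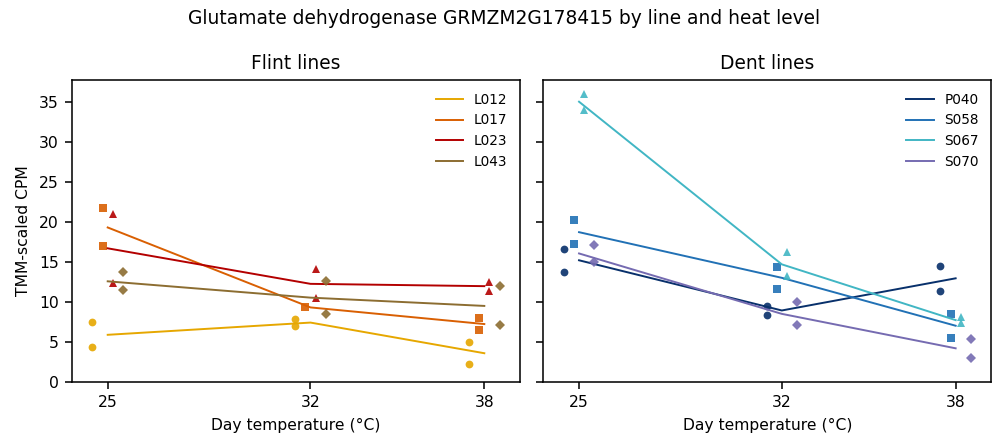
TMM-scaled CPM of glutamate dehydrogenase GRMZM2G178415 against day temperature, with Flint lines on the left and Dent lines on the right. Points are libraries and lines join the means of an inbred line. The S067 libraries fell from 34.0 and 36.0 CPM at 25°C to 7.37 and 8.05 at 38°C, and L012 had the lowest mean of the lines at 25°C and 38°C.

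The slope of GRMZM2G178415 over all libraries was −1.13 (SE 0.208, edgeR adjusted p = 1.80e-05), a 2.19-fold fall, where 19.7% of all genes were called as falling. The fall was below 0 in 8 of 8 lines fitted alone, from −2.20 in S067 to −0.27 in P040, which came to 0.01 without the second P040 library at 25°C. It passed the test alone in S067 (adjusted p = 0.00433, with 2.61% of genes called), S058 (−1.40, adjusted p = 0.0113) and S070 (−1.93, adjusted p = 0.0323). The call in S058 was lost without its first library at 25°C (adjusted p = 0.0551) or its second at 38°C (adjusted p = 0.0615), and that in S070 without any of its 4 libraries at 25°C and 38°C (adjusted p between 0.0960 and 0.192). The step from 25°C to 32°C was −0.71 (SE 0.217, adjusted p = 0.00955, with 30.3% called). The step from 32°C to 38°C, −0.42, did not pass the test (adjusted p = 0.162), and neither did a departure from a straight line (adjusted p = 0.776). The slopes of Flint and Dent lines differed by 0.69 (SE 0.260, adjusted p = 0.315), which did not pass.

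At 25°C GRMZM2G178415 was lower in Flint than in Dent lines by the fit over all libraries. The Flint libraries ranged from 4.31 to 21.7 CPM with a median of 13.03 and the Dent libraries from 13.8 to 36.0 with a median of 17.1, so the pools overlapped. The difference was −0.70 (SE 0.170, edgeR adjusted p = 0.00507), but it rested on the lowest Flint and the highest Dent line. Without L012 it was −0.34 (adjusted p = 0.201) and without S067 −0.43 (adjusted p = 0.152), and the exact permutation test over lines gave p = 0.257. At 32°C and 38°C the pools differed by −0.17 (adjusted p = 0.570) and 0.01 (adjusted p = 1).

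Over all libraries the glutamate dehydrogenases moved apart, and their balance within a library changed. GRMZM2G427097 gave between 1.13% and 14.8% of the counts of both genes at 25°C in the 16 libraries, with a median of 4.79%. At 38°C it gave 85.8% and 81.7% of them in S058 and 88.5% and 51.5% in S070. The share at 38°C was 32.4% and 26.0% in S067, 15.0% and 18.1% in P040, and between 5.13% and 24.02% with a median of 12.9% in the 8 Flint libraries. These shares are of counts and are not corrected for gene length, which would alter their size. In the change of a log2 ratio gene length cancels. The log2 ratio of GRMZM2G427097 to GRMZM2G178415 rose from 25°C to 38°C by 2.77 ± 2.31 (SD, n = 8 lines), higher in 8 of 8 lines, from 0.18 in L043 to 6.17 in S058. The exact sign-flip test over the 8 lines gave p = 0.00781, the smallest it can give, in a family of 6 ratios. The mean change was 1.04 in Flint and 4.50 in Dent lines. In L012 and L043 fitted alone, both genes had slopes below 0 that did not pass the test. They were −0.17 and −0.34 for GRMZM2G427097, and −0.75 and −0.42 for GRMZM2G178415.

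**Figure D4:**
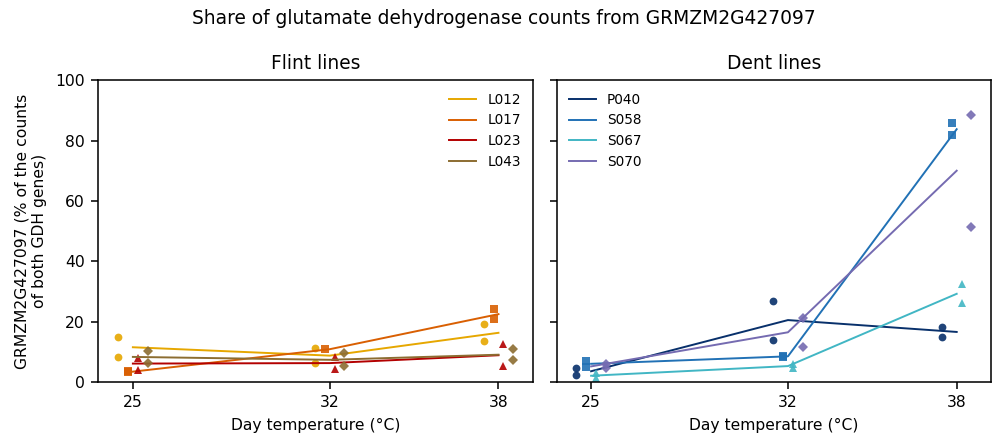
Share of the counts of both glutamate dehydrogenase genes that came from GRMZM2G427097, in percent, against day temperature. Points are libraries and lines join the means of an inbred line. The share was at most 14.8% at 25°C, and at 38°C it reached 85.8% and 81.7% in S058 and 88.5% and 51.5% in S070, but no more than 24.02% in any Flint library. Shares are not corrected for gene length.

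Glutamine synthetase GRMZM2G098290, the plastid form, had no common heat response. Its level ranged from 10.3 to 26.4 CPM at 25°C with a median of 14.2, from 8.29 to 32.95 at 32°C with a median of 14.1, and from 9.93 to 25.9 at 38°C with a median of 15.8. The heat levels overlapped almost wholly, and the slope was 0.07 (SE 0.173, edgeR adjusted p = 0.773). In the 4 Flint lines the slope was between −0.52 and −0.15, and in the Dent lines it was −0.22 in S067, 0.56 in S070, 0.68 in P040 and 0.71 in S058, with adjusted p between 0.227 and 0.911. The slopes of Flint and Dent lines differed by −0.76 (SE 0.333, adjusted p = 0.421), and the exact test over lines gave p = 0.0571, so this difference did not pass either.

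By the fit over all libraries, leaves of these Flint lines had more transcript of GRMZM2G098290 than those of the Dent lines at 32°C. The Flint libraries at 32°C lay between 11.99 and 32.95 CPM with a median of 18.4 and the Dent libraries between 8.29 and 20.3 with a median of 10.6. The highest was the only L017 library, with 32.95 CPM, and the highest Dent library was S067 replicate 2 with 20.3 against 11.1 in replicate 1, so the pools overlapped. The difference was 0.85 (SE 0.203, edgeR adjusted p = 0.00339), a 1.80-fold higher level in Flint, and the call held without L017 (0.63) and without the 3 libraries closer to another line (0.99, adjusted p = 0.00205). With lines as replicates it did not pass, as the exact test over lines gave p = 0.0571. At 25°C the Flint line means lay above all Dent line means, with medians over libraries of 18.4 and 12.2 CPM. That difference, 0.51 (SE 0.196, adjusted p = 0.0811), did not pass the test over all genes, but did so with the replicate number as a block (adjusted p = 0.0321), while the exact test over 4 against 4 lines gave its smallest value, p = 0.0286, before adjustment. At 38°C the order was turned, with medians of 13.9 in Flint and 19.9 in Dent and a difference of −0.27 (adjusted p = 0.331) that did not pass.

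The count table splits this locus. RefSeq places a further gene model of the table, GRMZM5G885867, in the same gene as GRMZM2G098290, and its counts were low, from 1 to 38. GRMZM5G885867 rose from a median of 0.499 CPM at 25°C to 1.28 at 38°C, a slope of 1.36 (SE 0.233, edgeR adjusted p = 5.72e-06), while GRMZM2G098290 did not. In an alternative chosen after seeing the data, the counts of both models were summed, and the difference between Flint and Dent at 32°C was then 0.78.

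Cytosolic glutamine synthetase GRMZM2G046601, or gln3, was close to the limit of detection in these leaves. This holds for that gene and not for glutamine synthetases at large. Counts per library were 95 to 346 in GRMZM5G872068, 19 to 216 in GRMZM2G036464, 8 to 188 in GRMZM2G050514 and 0 to 282 in GRMZM2G024104, not corrected for gene length. GRMZM2G046601 had 0 to 23 counts per library, was at 0 in 10 of the 47 libraries and reached 2 CPM in 3 of them before TMM scaling. At 25°C it ranged from 0 to 1.89 CPM with a median of 0.400, and at 38°C from 0.0712 to 1.20 with a median of 0.497, so the heat levels overlapped, and the slope was 0.15 (SE 0.509, edgeR adjusted p = 0.841). In L012 no count fell in the 4 libraries at 25°C and 32°C, and 8 and 2 counts fell in those at 38°C. The pooled level in L012 at 38°C, 0.212 CPM, lay under the 0.303 CPM that 3 counts over both libraries at 25°C would give, so no fold is given. Such limits cover counting error only.

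**Figure D5:**
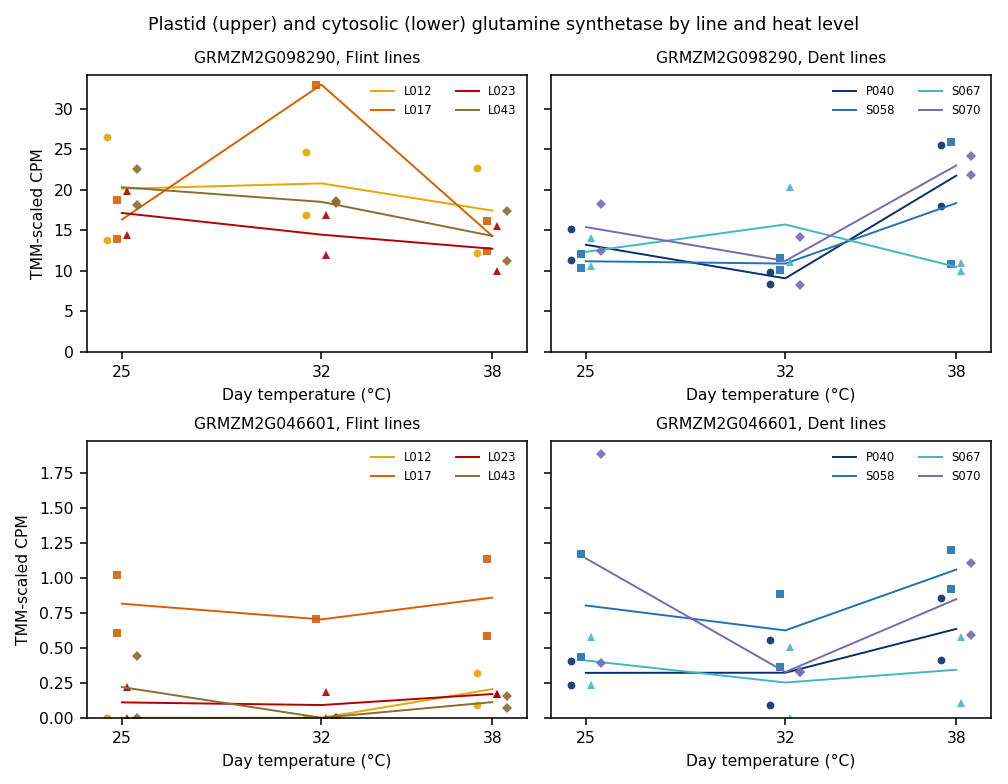
TMM-scaled CPM of the plastid glutamine synthetase GRMZM2G098290 (upper row) and the cytosolic glutamine synthetase GRMZM2G046601 (lower row) against day temperature, with Flint lines on the left and Dent lines on the right. Points are libraries and lines join the means of an inbred line. For GRMZM2G098290 the Flint lines had medians of 18.4, 18.4 and 13.9 CPM at 25°C, 32°C and 38°C and the Dent lines 12.2, 10.6 and 19.9 CPM, and for GRMZM2G046601 no library exceeded 1.89 CPM.

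Fewer reads of GRMZM2G046601 came from Flint than from Dent leaves at each heat level, and L017 was the exception among the Flint lines. Summed over libraries, GRMZM2G046601 had 18 counts in Flint and 50 in Dent at 25°C (0.285 and 0.661 CPM), 7 and 38 at 32°C (0.105 and 0.379 CPM), and 50 and 100 at 38°C (0.355 and 0.772 CPM). Of the Flint counts, 12, 5 and 32 came from L017 at 25°C, 32°C and 38°C, whose libraries lay between 0.586 and 1.13 CPM, among those of the Dent lines. At 0 were 4 of 8 Flint libraries at 25°C and 5 of 7 at 32°C, against 0 of 8 and 1 of 8 Dent libraries. The lines differed in level over the heat levels (edgeR adjusted p = 0.000159). The fitted differences between Flint and Dent passed the test at 32°C (adjusted p = 0.0475) and 38°C (adjusted p = 0.0392) but not at 25°C (adjusted p = 0.0682). Their size depends on the prior count, because whole lines are at 0, and the calls were lost without many single libraries, among them the first S067 library at 32°C (adjusted p = 1) and at 38°C (adjusted p = 0.384). The exact test over lines gave p of 0.143, 0.257 and 0.114 at 25°C, 32°C and 38°C. Maize has several cytosolic glutamine synthetase genes of similar sequence, and how the counting treated reads that match more than 1 of them is not given in the sources used here.

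Set against the plastid synthetase within a library, the dehydrogenase that rose gained and the one that fell lost ground. The log2 ratio of GRMZM2G427097 to GRMZM2G098290 rose by 1.64 ± 1.42 (SD, n = 8 lines) from 25°C to 38°C, in 8 of 8 lines (exact sign-flip p = 0.00781), although by only 0.08 in L012. Its mean change was 0.63 in Flint and 2.65 in Dent lines, and in L012 and L043 fitted alone both genes had slopes below 0. The log2 ratio of GRMZM2G178415 to GRMZM2G098290 changed by −1.14 ± 0.971 and was lower in 6 of 8 lines (exact p = 0.0313), with −0.41 on average in Flint and −1.86 in Dent lines. With the exact p adjusted over the 6 ratios, the first change no longer passed without replicate number 2, nor the second without replicate number 1. Against the cytosolic gene, the ratio of GRMZM2G427097 to GRMZM2G046601 changed by 1.42 ± 1.93, was higher in 5 of 8 lines and did not pass (exact p = 0.0938), with a mean of −0.05 in Flint and 2.88 in Dent lines. The ratio of GRMZM2G178415 to GRMZM2G046601 changed by −1.36 ± 0.622 and was lower in 8 of 8 lines (exact p = 0.00781). After the same adjustment it no longer passed without replicate number 2. The ratio of GRMZM2G098290 to GRMZM2G046601 changed by −0.22 ± 0.625 (exact p = 0.344), and all ratios to GRMZM2G046601 rest on its few counts.

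The other genes of nitrogen assimilation moved in both directions with heat. Of 15 genes of this pathway, chosen with earlier results of these data known, 7 rose (GRMZM5G885867 among them), 6 fell and 2 did not pass. Of all genes 24.3% rose and 19.7% fell. The median slope was −0.21 against 0.08 for all genes. Most were picked by symbol or product name. GRMZM2G076723, GRMZM2G053669, GRMZM2G078472 and GRMZM2G093175 were added from the study's lists of genes called heat responsive in these same libraries. Their calls were largely fixed beforehand, so these counts do not test whether the pathway moved more often than other genes. Nitrate reductase GRMZM2G076723, listed as such by the study, had the largest fall, with a slope of −3.71 (edgeR adjusted p = 3.22e-08), from a median of 2.73 CPM at 25°C to 0.345 at 38°C. The largest rises were in asparagine synthetases, which move the amide of glutamine to asparagine. Those named here and GRMZM2G076723 came from the study's lists, which required a log2 slope beyond 2 in either direction. Their large slopes were thus known beforehand. GRMZM2G053669 (asn3) had 0 to 5 counts at 25°C and 3 to 4533 at 38°C, with medians of 0.0981 and 8.61 CPM and a slope of 7.90 (adjusted p = 3.87e-10). GRMZM2G078472, listed by the study as an asparagine synthetase, rose from a median of 0.440 to 1.04 CPM, with a slope of 3.59 (adjusted p = 6.92e-05). Its libraries ranged from 0 to 2.87 CPM at 25°C and from 0.155 to 39.8 CPM at 38°C, so the heat levels overlapped. At 32°C its median was 0.167 CPM. GRMZM2G093175 (asn2) was at 0 in all 31 libraries at 25°C and 32°C and in 9 of 16 at 38°C, where its pooled level was at least 15.0-fold higher than the limit that 3 counts over the 25°C libraries set. The S070 library with the most counts held 42 of the 88, and without it, in an alternative chosen after seeing the data, the bound was 8.52-fold. Between the pools, 3 of the 15 genes were higher and 0 lower in Flint at 25°C, against 6.37% and 8.24% of all genes. At 32°C 1 was higher and 0 lower, against 7.53% and 10.4%, and at 38°C 1 was higher and 4 were lower, against 11.4% and 11.8%.

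Of the 8 cell type markers 3 fell with heat, where 19.7% of all genes fell and 44.0% were called. Of the 4 bundle sheath markers, NADP-ME and PEPCK fell, and of the 4 mesophyll markers PPDK fell, while the other 5 did not pass the test. The log2 ratio of summed bundle sheath to mesophyll marker CPM ranged from −2.26 to −1.18 at 25°C (median −1.67) and from −2.64 to −1.16 at 38°C (median −1.89). At 38°C its median was −1.996 in Flint and −1.81 in Dent libraries, with ranges that overlapped, and the adjusted p of the 8 markers between the pools lay between 0.0550 and 0.577. Their part in the values of the dehydrogenases and synthetases was not tested.

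The profiles of the 4 genes over the 24 means of line and heat level had little in common. As a description, Pearson's r between GRMZM2G427097 and GRMZM2G178415 was −0.403, between GRMZM2G427097 and GRMZM2G046601 0.510, and between GRMZM2G427097 and GRMZM2G098290 0.0788. Of 13908 genes with a mean of at least 0 log2 CPM, the most alike to GRMZM2G427097 were GRMZM2G022782 (r = 0.808), GRMZM2G148387 (r = 0.797) and GRMZM2G053206 (r = 0.797), and all points share their libraries and scaling. The most alike to GRMZM2G098290 reached r = 0.761 (GRMZM2G070723), 0.758 (GRMZM2G333833) and 0.757 (GRMZM2G079759), and those to GRMZM2G046601 reached 0.901 (GRMZM2G139123), 0.859 (GRMZM2G046529) and 0.859 (AC210848.3_FG004).

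GRMZM2G178415 had a near copy of its profile in GRMZM2G478798 (r = 0.987), ahead of GRMZM2G311665 (r = 0.856) and GRMZM2G074169 (r = 0.847). The counts of GRMZM2G478798 were 0.385 to 0.673 times those of GRMZM2G178415 in the 47 libraries, with a median of 0.539 and a coefficient of variation of 10.8%. Neither the strand of the libraries nor the treatment of reads in overlapping gene models is given in the sources used here, and whether these genes overlap was not analysed here. How reads were divided between both gene models was therefore not tested.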

How the data were processed

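Leaf RNA of 8 inbred lines was sequenced at 3 heat levels, in 47 libraries. Reads, which were single-end, had been mapped by the authors to B73 RefGen_v3, for which the submitters' processing notes name TopHat2 2.0.3. The authors deposited raw counts per protein-coding gene model from easyRNASeq, kept where at least 2 libraries reached 2 CPM, and these counts were used unchanged. The labels gave each library its line, temperature and replicate number, and the study's methods gave the pool and tolerance of each line. The 4 genes, the pathway and marker lists and the tests were chosen with earlier results of these data known.

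Counts were tested in edgeR 4.0.16 (R 4.3.3) with TMM factors, a prior count of 0.125, the quasi-likelihood test and Benjamini-Hochberg adjustment over 17905 genes, and called at an adjusted p of 0.05. Heat levels were coded 0, 7/13 and 1. Levels of the pools came from a fit with 1 mean per line and heat level, and slopes per line from each line alone. Exact tests over lines were two-sided and used line means of log2 CPM with a prior count of 2, or the slopes of the lines fitted alone. Fits of pool levels or slopes without a library or line kept the dispersion trend of the full fit. The fits were tested on simulated data. Replicates are pools of different plants. Named were all 4 genes, the 4 pathway genes with the largest called slope and the 3 genes most alike to each member. Alternatives were DESeq2 1.42.0 and its size factors, the likelihood ratio test, other filters, thinning, the line or replicate number as a covariate, and leaving out libraries, lines or the 3 libraries closer to another line. Sequences and gene lengths in the build of the counts were not used here, so levels were not compared between genes. RefSeq names matched 12358 genes.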

Additional observations from a re-analysis of the deposited data

Results flagged for a closer look

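The heat response of glutamate dehydrogenase GRMZM2G427097 differed between the Flint and Dent lines studied by the edgeR test of the difference itself. The Flint minus Dent log2 slope was −3.18 (edgeR adjusted p = 0.0175). With lines as replicates the exact permutation test gave p = 0.0286, the smallest possible, which did not pass once adjusted. The slopes of lines fitted alone were higher in 4 of 4 Dent lines than in any Flint line, a gap that did not hold over single libraries left out. Within the 24 groups of 7 or 8 libraries that were examined, made up of 1 gene, 1 pool and 1 heat level, no library stood far enough from the others to be listed.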

How the results depend on the processing

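Over the alternatives of the main results, 1298 values stayed the same, 64 lost a call, 11 gained one, 4 moved and 0 called values reversed. Staying the same meant keeping the side of the threshold. Where an alternative gave no adjusted p, it meant lying within the SD between replicate libraries of the main value, and values beyond that SD had moved. Of the values that stayed the same, 28 that passed no test changed sign. The fit with no filter could not differ, as all 17905 genes passed the filter. Leaving out a line was chosen after seeing the data. The Flint minus Dent slope of GRMZM2G427097 (−3.18) lost its call without L012 (−3.01), L023 (−3.13), L043 (−2.95), S058 (−2.56) or S070 (−2.89), and leaving out libraries or a replicate number gave −4.30 to −1.92. Its difference at 32°C gained a call without S067 (−1.03), its difference at 38°C ranged from −3.57 to −2.10 and its step from 32°C to 38°C from 1.88, where the call was lost, to 3.35. For GRMZM2G178415 the difference at 25°C was −0.34 without L012 and −0.43 without S067, and the step from 25°C to 32°C lost its call without replicate 1 (−0.68) or 2 (−0.75). For GRMZM2G046601 the difference at 25°C (−2.43) gained a call with DESeq2 (−1.98), the likelihood ratio test (−2.42) and without L017 (−3.40), P040 (−2.73) or S067 (−2.59), with −3.59 to −2.04 over libraries left out. At 32°C (−2.71) it lost its call without L012 (−1.90), L023 (−3.13), L043 (−1.90), P040 (−2.70), S058 (−2.45) or S070 (−2.73), and at 38°C (−1.44) without L012 (−1.36), L023 (−1.27), L043 (−1.11), S058 (−1.24) or S070 (−1.34), with ranges of −3.95 to −1.60 and −1.72 to −1.004. The causes were not tested.

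For GRMZM2G098290 the difference at 25°C gained a call with the replicate block (0.51, adjusted p = 0.0321), and leaving out libraries gave 0.37 to 0.60. Leaving out a replicate number gave changes of the ratio of GRMZM2G427097 to GRMZM2G098290 of 1.601 to 1.67, of GRMZM2G178415 to GRMZM2G098290 of −1.34 to −0.94 and of GRMZM2G178415 to GRMZM2G046601 of −1.67 to −1.04, and each lost its call, after adjustment over the 6 ratios, with 1 of both numbers left out. Libraries of the same replicate number tended to deviate together. Of 253 pairs of groups, 171 had correlated deviations over 0.1 (from −0.222 to 0.508, median 0.188), and 23 of 23 groups correlated positively on average with the others. The main fits nevertheless left the replicate number out, so a shared replicate effect stays in their error. The fit with the replicate number as a block is given as an alternative. With the replicate block the heat slope of GRMZM2G427097 was 3.28 and 7991 genes were called, against 7887. The block also ended the call of that gene in S070 alone (4.17, adjusted p = 0.0546).

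Counts of called genes moved more than single values. For the Flint minus Dent slope, 29 genes became 97 with DESeq2 and 123 with the likelihood ratio test. With a filter of 2 CPM in at least 50% of the libraries they became 19, out of fewer genes tested. They became 58 without the 3 libraries closer to another line, 9 to 59 without a library and 1 to 112 without a line. Without replicate 1 or 2 they became 0 in edgeR, the only tool run on it. Of 17905 genes, 798 and 819 then had an unadjusted p under 0.05, a share below the 0.05 expected with no difference. The filter of 2 CPM in at least 50% of the libraries removed GRMZM2G427097 and GRMZM2G046601. It took the heat slope calls to 4834, again out of fewer genes tested, so this is not a change in the share called. Without a replicate number the heat slope calls were 3905 to 5374, and the steps fell from 5429 and 4168 to at least 2437 and 1166. Genes whose slope differed over all lines fell from 31 to 0. Of 17905 genes, 328 and 397 then had an unadjusted p under 0.05 (edgeR only), again a share below 0.05. DESeq2 gave no adjusted p for the heat slope of GRMZM2G427097 (3.25).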
